A study of Homo sapiens with 6 samples.

Results

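ETS1, a DNA-binding transcription factor, was the gene examined, 1 of 7758 genes in the table. It was found by its symbol, and the other genes of the ETS family and the functional groups around ETS1 were read from fixed lists of symbols. The libraries came from the ARPE-19 line, which was derived from human retinal pigment epithelium (RPE), and the groups were taken from the labels. The sh-Control group (3 libraries) carried a control short hairpin RNA and the sh-METTL3 group (3 libraries) a hairpin against METTL3, the enzyme subunit that writes m6A into mRNA. Both groups were exposed to lipopolysaccharide (LPS), the inflammatory component of Gram-negative cell walls, at 1 µg/ml for 24 h. Cells without LPS were not analysed here, so every comparison below is between the hairpins in stimulated cells. The hairpins were delivered by lentivirus and stably infected cells were selected. The study names puromycin for METTL3 silencing, and neomycin beside it for cells in which NR2F1 was silenced too. Separate cultures or infections behind replicates are not stated in the labels, and p-values measure the spread between these libraries only, which may be technical.

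ETS1 belongs to a family of transcription factors that share the ETS domain, a winged helix-turn-helix fold that binds DNA around a GGAA core. ERK phosphorylates ETS1 and ETS2 next to their Pointed domain, which increases recruitment of the coactivator CBP/p300. ETS1 often binds DNA jointly with RUNX or AP-1 factors. It is best known from endothelial cells, lymphocytes and invasive tumour cells, where its described targets include matrix proteases, the urokinase system and inflammatory mediators.

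The sequences below are shown because they say which part of ETS1 the study's own qPCR assay reads and where the letters of an m6A-type motif lie in its mRNA. ETS1 (ENSG00000134954) spans GRCh38 chr11:128458761-128587558 on the minus strand. GENCODE release 29 holds 9 ETS1 transcripts, 6 of them coding. The primers the study designed for ETS1 matched transcripts of no other gene, and the product they bound is 96 bases of coding sequence in exon 8 of ETS1-202 (GRCh38 chr11:128480312-128480407, minus strand). Capitals in the product mark the primer sites. The last line is the reverse primer as ordered, which reads from the opposite strand.
ETS1 forward primer: gatagttgtgatcgcctcacc
ETS1 qPCR product: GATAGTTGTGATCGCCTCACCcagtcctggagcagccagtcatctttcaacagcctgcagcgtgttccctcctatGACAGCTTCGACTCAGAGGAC
ETS1 reverse primer: gtcctctgagtcgaagctgtc
Of the 6 coding transcripts, 3 (ETS1-201, ETS1-202 and ETS1-208) hold both primer sites and 3 do not. The count in the table is 1 value for the whole gene, so it cannot tell these transcripts apart.

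METTL3 prefers adenosines in a short purine-rich setting, of which GGACT, as written in DNA letters, is the best-known form. The 5 letters GGACT occur 12 times on the transcript strand of ETS1-202 (5139 bases), 4 times in the coding sequence and 8 times in the 3′ UTR. That is 2.34 per kb, against a median of 0.927 per kb over the transcripts of 19669 coding genes, and it is higher than in 94.5% of them. The letters are common: 88.8% of those genes have at least 1 match. The 4 coding matches and the first one after the stop codon are given in windows of 25 bases, with GGACT in capitals and each position counted from the 5′ end of ETS1-202.
ETS1-202 position 451, exon 5, coding, chr11:128489455-128489459: cccatgttcgGGACTgggtgatgtg
ETS1-202 position 964, exon 8, coding, chr11:128480431-128480435: tcgggggccaGGACTcttttgaaag
ETS1-202 position 1084, exon 8, coding, chr11:128480311-128480315: tcgactcagaGGACTatccggctgc
ETS1-202 position 1132, exon 8, coding, chr11:128480263-128480267: gcaccttcaaGGACTatgtgcggga
ETS1-202 position 1603, exon 10, 3′ UTR, 60 bases after the stop codon, chr11:128462297-128462301: cgtgttggttGGACTctgaattttg
The match at position 1084 overlaps the end of the qPCR product. These are matches of letters in the GRCh38 reference on the minus strand, not methylated sites, and m6A itself was not analysed here.

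Values are scaled read counts, the number of reads on a gene divided by 1 size factor for the library. The libraries held 10898434 to 17750052 reads on the listed genes, and ETS1 itself was covered by 4120 to 14146 reads per library. METTL3 had 1091 to 1154 scaled reads in the sh-Control libraries and 765 to 1001 in the sh-METTL3 libraries, 18.5% lower on average (log2 fold change -0.30 ± 0.0965, SE; adjusted p = 0.0108, limma). Without sh-METTL3 replicate 3, the lowest library, the METTL3 log2 fold change was -0.18 and still passed (adjusted p = 0.0135, limma). The METTL3 log2 fold change no longer passed with the RLE scaling of edgeR (-0.17, adjusted p = 0.0881) or when the 58780 annotated genes were counted as tests (adjusted p = 0.0818). The study reported less METTL3 protein and a lower m6A rate in its METTL3-silenced ARPE19 cells, which mRNA counts do not measure. Markers fixed for 3 cell types were read to check the label, in a table where 52.2% of all listed genes were called lower and 47.6% higher. Of 15 RPE markers 7 were listed, 4 higher (KRT8, KRT18, LRAT and MITF) and 3 lower (BEST1, PMEL and SERPINF1) in sh-METTL3 cells, and their summed level was 18864 to 20134 against 30158 to 33478. That sum is mostly the keratins KRT8 and KRT18, which simple epithelia in general express, and without them the other 5 summed to 2558 to 2650 against 1646 to 1718, the opposite direction. Of 10 endothelial markers 3 were listed (ROBO4, TIE1 and EGFL7), all lower, with a sum of 1908 to 2167 against 501 to 535. In sh-Control libraries most of that sum was ROBO4 (1195 to 1366 scaled reads), which is counted again among the neighbours of ETS1 below. Of 10 leukocyte markers CD14 alone was listed, at 24.7 to 25.9 against 0 to 2.80. RPE65, RLBP1, PECAM1, CDH5, VWF and PTPRC, which define these cell types, were not listed and not analysed here, and the part of other cell types in the results was not tested.

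ETS1 mRNA was lower in METTL3-silenced cells. The sh-Control libraries held 11284, 11568 and 11261 scaled reads. The values under METTL3 silencing were 5681, 5982 and 4613. The groups did not overlap, the sh-Control libraries lay close together, and sh-METTL3 replicate 3 was the lowest of the 6. The means were 11371 ± 171 and 5425 ± 719 (SD, n = 3 each), 52.3% lower or 2.10-fold. The log2 fold change was -1.08 ± 0.0862 (SE), with a 95% interval from -1.27 to -0.88 and an adjusted p of 2.51e-06 by limma. Without sh-METTL3 replicate 3 it was -0.96. ETS1 passed the threshold in all 16 alternatives, with log2 fold changes from -1.15 to -0.94 and adjusted p from 7.14e-33 to 0.000472. The plot of ETS1 by library shows the 6 values.

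**Figure D1:**
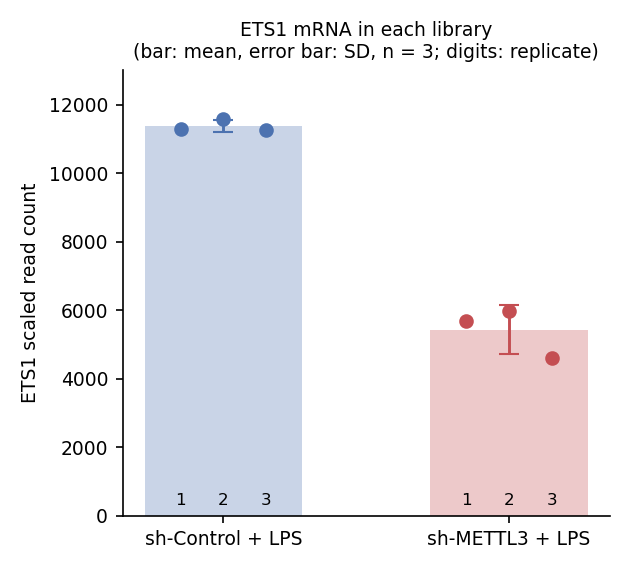
Scaled read count of ETS1 (vertical axis, from 0) in each of the 6 libraries, by group, with points for libraries and the group mean and SD. The 3 sh-Control libraries sit between 11261 and 11568, and the 3 sh-METTL3 libraries between 4613 and 5982.

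The call on ETS1 has to be read against how the table was made. The deposited table holds genes that its authors had already called different, so 99.9% of the listed genes passed here, 52.2% as lower and 47.6% as higher, and 98.5% had groups that did not overlap (51.7% with sh-METTL3 the lower group). The lower majority depends on the scaling: with the RLE factors of edgeR 3335 genes were called lower and 3704 higher, and the ETS family had 8 lower genes instead of 11. The study had also chosen ETS1 for qPCR and western blotting from genes shared by these libraries and its m6A sequencing. The call on ETS1 here is therefore not independent evidence. What the table allows is a statement of size and of level. A log2 fold change below -1 was found in 13.2% of the listed genes, and 12.0% fell further than ETS1, or 22.9% of those with a negative fold change. Per kb of exon (7149 bases for ETS1) the level was 1591 ± 23.9 in sh-Control cells and 759 ± 101 in sh-METTL3 cells. It was above 96.1% of the listed genes in the former and 91.4% in the latter, so ETS1 remained among the more abundant listed genes. In these bulk libraries fewer ETS1-expressing cells and less ETS1 RNA per cell cannot be told apart. ETS1-AS1, an antisense transcript, and MIR6090, both on the plus strand, overlap the span of ETS1. Neither is listed, and since strandedness was not given, their reads cannot be told apart from those of ETS1.

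The ETS family did not move as a block. Of its 28 genes 17 were listed, of which 11 were lower and 6 higher in sh-METTL3 cells, against 52.2% and 47.6% of all listed genes. The median log2 fold change was -0.29 with or without ETS1, beside -0.21 over all listed genes. Groups did not overlap for any of the 17 (98.5% of all listed genes). EHF, ERG, ETV5, ETV3L, FEV, ELF5, GABPA, SPI1, SPIB, SPIC and SPDEF were not listed and not analysed here.

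ETS2, the closest relative of ETS1 and likewise an ERK substrate, moved the other way. It stood at 892, 858 and 796 scaled reads in sh-Control libraries and at 1092, 1005 and 1148 in sh-METTL3 libraries. The rise was 0.35 on the log2 scale (adjusted p = 0.00134, limma). Within a library the ratio of ETS1 to ETS2 does not depend on the scaling, and it was 12.7, 13.5 and 14.1 in sh-Control cells against 5.20, 5.95 and 4.02 in sh-METTL3 cells. These ranges did not overlap, and the exact two-sided permutation p was 0.1, the smallest that 3 against 3 libraries can give.

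FLI1, an ERG-subfamily factor of blood and endothelial cells, lies next to ETS1 on chromosome 11 and had the largest fall of the family. It had 49, 32 and 49 reads in the sh-Control libraries and 2, 0 and 0 in the sh-METTL3 libraries. Pooled by group, 130 reads against 2 gave a 53.0-fold higher level in sh-Control cells (95% exact interval 14.4 to 442), an interval that covers counting error only. The fitted log2 fold change of -4.78 (adjusted p = 1.14e-05, limma) depends on the pseudocount of 1 and was -7.14 with a pseudocount of 0.1. FLI1 was a weakly expressed gene even in control cells, at 4.72 scaled reads per kb.

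The PEA3 group, growth-factor responsive ETS activators, split. ETV4 fell from 345, 298 and 235 scaled reads to 118, 81.2 and 90.7 (log2 fold change -1.59, adjusted p = 3.07e-05, limma). ETV1 rose from 570, 607 and 565 to 1192, 1080 and 1207 (log2 fold change 1.00, adjusted p = 1.24e-06, limma). The ratio of ETV4 to ETV1 within a library was 0.504 ± 0.0954 in sh-Control cells and 0.0832 ± 0.014 in sh-METTL3 cells (SD, n = 3 each, exact permutation p = 0.1).

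The ETV6 and ETV7 pair, repressors with a Pointed domain, also split. ETV7 fell from 268, 307 and 340 scaled reads to 69.0, 86.3 and 62.7 (log2 fold change -2.06, adjusted p = 2.15e-06, limma). ETV6 rose from 339 ± 12.3 to 437 ± 36.3 (log2 fold change 0.36, adjusted p = 0.00418, limma). The ratio of ETV7 to ETV6 was 0.900 ± 0.118 against 0.166 ± 0.0138 (n = 3 each, exact permutation p = 0.1).

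Among the ternary complex factors, which bind with SRF at serum response elements, ELK3 fell and ELK1 rose. ELK3 went from 3093 ± 68.3 to 2254 ± 96.2 scaled reads (log2 fold change -0.46, adjusted p = 2.92e-05, limma) and ELK1 from 864 ± 23.6 to 1030 ± 45.8 (0.25, adjusted p = 0.00349). ELK4 stood at 2054 ± 56.8 and 1732 ± 170 (log2 fold change -0.25, adjusted p = 0.0066, limma), a call that was lost with RLE scaling (-0.12, adjusted p = 0.112) and, narrowly, with the annotated genes as tests. The repressors ERF and ETV3 were lower by similar amounts. ERF went from 4066 ± 139 to 2929 ± 330.5 (log2 fold change -0.48, adjusted p = 0.000231, limma) and ETV3 from 845 ± 46.8 to 614 ± 56.0 (-0.46, adjusted p = 0.000555).

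In the ELF subfamily ELF4 fell from 1571 ± 46.4 to 1193 ± 42.0 scaled reads (log2 fold change -0.40, adjusted p = 0.000124, limma). ELF1 and ELF2 each had a log2 fold change of -0.29 (adjusted p = 0.0064 and 0.00406, limma), and both calls were lost with RLE scaling (-0.17 and -0.16, adjusted p = 0.078 and 0.065). ELF3, an epithelial ETS factor, had 157, 166 and 188 scaled reads in sh-Control libraries and 424, 365 and 195 in sh-METTL3 libraries. Replicate 3 of the sh-METTL3 group lay just above the highest sh-Control library, and the log2 fold change of 0.87 (adjusted p = 0.00598, limma) was 1.20 without it. ETV2, a factor of early endothelial and blood development, was covered by 3, 5 and 5 reads against 16, 15 and 12, a ratio of 4.06 (95% exact interval 2.14 to 8.23, counting error only).

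**Figure D2:**
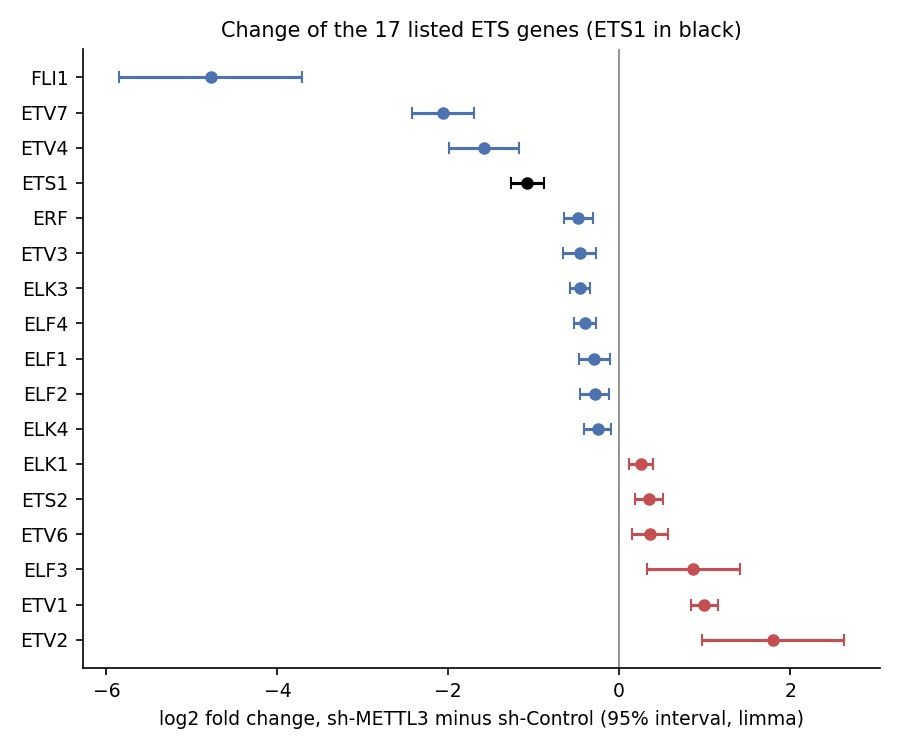
Log2 fold change of the 17 listed ETS family genes, sh-METTL3 minus sh-Control, with 95% intervals from limma. ETS1 at -1.08 comes after FLI1, ETV7 and ETV4, and 6 genes lie above 0, led by ETV2 at 1.80.

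Per kb of exon, ETS1 was the most abundant listed ETS gene in control cells. Its 1591 scaled reads per kb stood above ERF at 1234, ELK3 at 665 and ELF4 at 364, and no library values of these neighbours in the order overlapped. Below them came ELK1 at 254 and ELF1 at 246, ETS2 at 185 and ELK4 at 169, ETV7 at 128 and ETV3 at 126, and ELF2 at 85.8 and ETV4 at 81.1, and the values within each of these pairs overlapped. ETV1 at 60.4, ETV6 at 48.0, ELF3 at 23.7, FLI1 at 4.72 and ETV2 at 1.84 closed the order without overlap.

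In METTL3-silenced cells ERF at 889 ± 100 and ETS1 at 759 ± 101 per kb led the order, with overlapping library values. ELK3 at 485, ELK1 at 303 and ELF4 at 276 followed without overlap, and then ETS2 at 235 and ELF1 at 202, whose values overlapped. ELK4 stood at 143, ETV1 at 121 and ETV3 at 91.5. From ELF2 at 70.4 through ETV6 at 61.7, ELF3 at 45.6 and ETV7 at 30.6 to ETV4 at 26.8, each gene overlapped the next. ETV2 was at 7.39 and FLI1 at 0.0761. The ratio of ETS1 to ERF per kb was 1.28, 1.27 and 1.32 in sh-Control libraries and 0.952, 1.01 and 0.642 in sh-METTL3 libraries. The ranges did not overlap, but 1 sh-METTL3 library still had slightly more ETS1 than ERF per kb. The order of ETS1 and ERF in sh-METTL3 cells rests on the exon lengths used, 7149 and 3295 bases. Without division by length the ratio in the sh-METTL3 libraries was 2.07, 2.19 and 1.39.

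**Figure D3:**
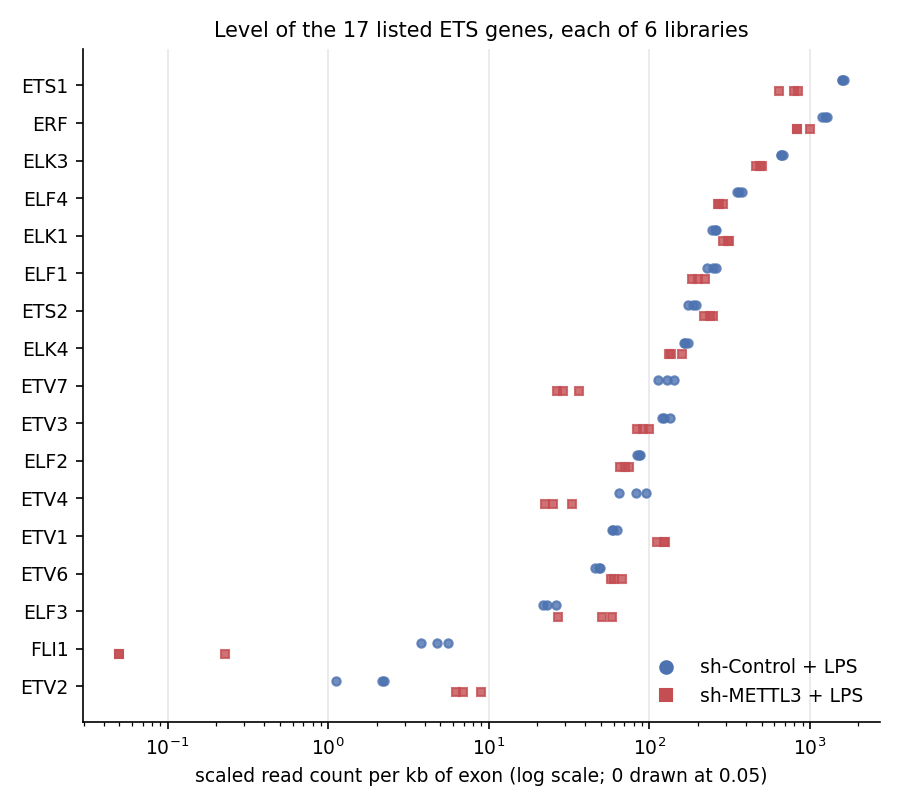
Level of each listed ETS family gene in scaled reads per kb of exon (logarithmic axis), with 1 point per library and the groups in separate colours. In sh-Control cells ETS1 leads at 1591, and in sh-METTL3 cells ETS1 at 759 and ERF at 889 overlap.

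The share of ETS1 in the summed per-kb level of the listed ETS genes was 30.0%, 30.3% and 30.3% in sh-Control libraries and 21.1%, 22.5% and 17.2% in sh-METTL3 libraries (exact permutation p = 0.1, n = 3 each). The sum itself went from 5269 ± 71.4 to 3747 ± 25.3 scaled reads per kb, and from 3678 ± 48.8 to 2988 ± 111 with ETS1 left out (exact permutation p = 0.1 for both). ETS1 therefore lost more of its level than the other listed members summed. Unlisted members are missing from these sums.

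The genes around ETS1 on chromosome 11 were mostly lower too. Within 5 Mb of ETS1 39 other genes were listed, of which 37 passed as lower (52.2% of all listed genes did) and 2, VWA5A (log2 fold change 0.70) and CDON (0.85), as higher. Their median log2 fold change was -0.77, with a range from -4.78 (FLI1) to 0.85, beside -0.21 over all listed genes. Both sides took part: 27 of 29 genes towards the centromere were lower with a median of -0.75, and 10 of 10 towards the telomere with a median of -0.81. ETS1 had the twelfth most negative fold change of the 40.

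The neighbours differ widely in function. NTM, a neural adhesion molecule (log2 fold change -2.67), ROBO4, an endothelial guidance receptor (-2.41), and ADAMTS15, a matrix protease (-2.15), fell further than ETS1. APLP2, a relative of the amyloid precursor protein and one of the most abundant genes of the region, went from 56969 ± 1284 to 32349 ± 1172 scaled reads (-0.82). SRPRA, a subunit of the signal recognition particle receptor (-0.95), CHEK1, a checkpoint kinase (-0.68), and TIRAP, an adaptor of LPS signalling (-0.53, not past the threshold with the annotated genes as tests), fell less. ST3GAL4, a sialyltransferase, had the smallest fall (-0.35).

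Set against the median of these neighbours in the same library, ETS1 was lower by 0.29, 0.15 and 0.49 on the log2 scale in the 3 sh-METTL3 libraries. The share of the control mean was 0.500, 0.526 and 0.406 for ETS1 and 0.600, 0.574 and 0.566 for the median neighbour. The difference between groups in ETS1 relative to its neighbours was -0.31 (exact permutation p = 0.1, the smallest possible). DNA copy number of the lines was not analysed here, and its part in the fall of ETS1 was not tested.

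**Figure D4:**
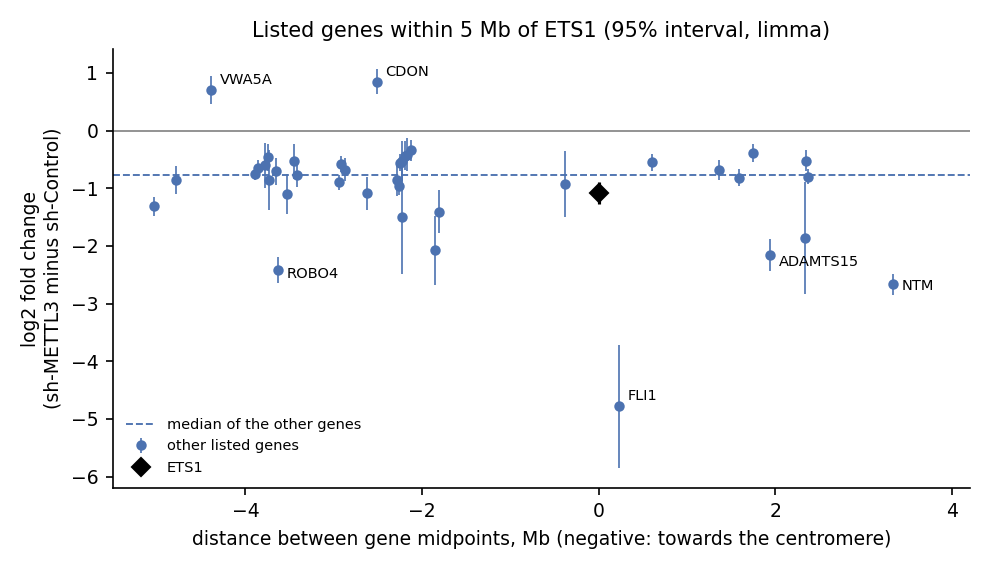
Log2 fold change (sh-METTL3 minus sh-Control, 95% interval from limma) of ETS1 and the 39 other listed genes within 5 Mb, by distance between gene midpoints in Mb. All but 2 lie below 0, and the dashed line marks their median of -0.77.

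Genes of the RAS-ERK cascade, which phosphorylates ETS1, were called in both directions. Of 15 genes 10 were listed, 5 higher and 5 lower, and their log2 fold changes had a median of -0.06. Over all listed genes 52.2% were lower and 47.6% higher, so these counts are close to the background. EGFR, the receptor at its head, had 7123, 6831 and 6505 scaled reads in sh-Control libraries and 3698, 3814 and 5022 in sh-METTL3 libraries (log2 fold change -0.72, adjusted p = 0.000117, limma). MAPK3, which encodes ERK1, had the largest rise, from 1307, 1419 and 1482 to 2056, 2098 and 1918 (0.53, adjusted p = 4.20e-05). The scaffold KSR1 (-0.36), NRAS (-0.28), ARAF (-0.29) and BRAF (-0.29) were lower. HRAS (0.37), MAP2K2 (0.28) and SOS1 (0.23) were among the higher genes. The call on the SOS1 log2 fold change was lost without sh-Control replicate 2 (0.21, adjusted p = 0.0508, limma) and with the annotated genes as tests. Leaving out 1 library gave SOS1 log2 fold changes from 0.14 to 0.27. The call on ARAF was lost with RLE scaling (-0.16).

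Genes whose transcription reports ERK activity were the next group. Of 14 such genes 9 were listed, and all 9 were lower, 8 of them on other chromosomes than ETS1. The share of lower genes over the whole table was 52.2%. The group had a median log2 fold change of -1.20, beside -0.21 over all listed genes. EGR1, an immediate early zinc finger factor, had 1548, 916 and 503 scaled reads in sh-Control libraries and 228, 216 and 187 in sh-METTL3 libraries (log2 fold change -2.09, adjusted p = 0.000158, limma). The sh-Control libraries differed from each other by more than the sh-METTL3 libraries did. DUSP6, the ERK phosphatase, stood at 444, 403 and 265 against 109, 113 and 128 (-1.63, adjusted p = 2.49e-05). The feedback inhibitors SPRY4 (-1.21), SPRY2 (-0.81) and SPRED1 (-0.67), the AP-1 member FOSL1 (-1.20), the stress response gene IER3 (-1.05) and ETV4 were also lower. SPRED2 had the smallest change (-0.21, adjusted p = 0.00806, limma), which was lost with RLE scaling (-0.09, adjusted p = 0.189) and with the annotated genes as tests (adjusted p = 0.061). Phosphorylated ERK and ETS1 protein were not measured by these libraries.

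Of 18 DNA-binding partners and cofactors of ETS1, 9 were listed, 8 of them lower and 1 higher, against 52.2% and 47.6% of all listed genes. The median log2 fold change was -0.77, beside -0.21 over all listed genes. RUNX1, which binds DNA cooperatively with ETS1, went from 2273, 2405 and 2307 scaled reads to 1291, 1376 and 1460 (log2 fold change -0.76, adjusted p = 2.46e-06, limma), and RUNX2 had a log2 fold change of -0.77. Among AP-1 genes FOS had 333, 216 and 105 scaled reads in sh-Control libraries and 10.3, 11.6 and 12.3 in sh-METTL3 libraries (-4.00, adjusted p = 5.63e-06). FOSB (-2.64), FOSL1 (-1.20) and JUNB (-0.94) were lower as well. JUN was higher by 0.22 (adjusted p = 0.0114, limma), a call that was lost when the annotated genes were counted as tests. The nuclear body protein SP100 (-0.56) and the zinc finger factor SP1 (-0.48) completed the group. FOSL1 and ETV4 are each counted in more than 1 group. Of 9 genes for ETS1 protein turnover DDB1 alone was listed, an adaptor of the ubiquitin ligase that carries COP1, and it was higher by 0.24 (adjusted p = 0.00277, limma).

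Genes described as ETS1 targets in other cells formed the last group. Of 32 on the list 13 were in the table, 11 of them lower and 2 higher, against 52.2% and 47.6% of all listed genes. The median log2 fold change was -1.07, beside -0.21 over all listed genes. Of the 11 outside chromosome 11, 9 were lower with the same median. The matrix protease MMP9 had 156, 149 and 163 scaled reads in sh-Control libraries and 3.73, 5.15 and 8.96 in sh-METTL3 libraries (log2 fold change -4.56, adjusted p = 6.16e-07, limma). The matrix glycoprotein TNC (-4.08) and CSF2, which encodes GM-CSF (-2.93), came next.

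CCL2, a monocyte chemoattractant, was far more abundant and went from 7794, 7561 and 7719 to 2520, 2827 and 2343 scaled reads (log2 fold change -1.59, adjusted p = 5.01e-08, limma). ICAM1, a leukocyte adhesion molecule, had a log2 fold change of -1.28. The stromelysin MMP3 (-1.07), the TGF-beta receptor TGFBR2 (-1.07), the urokinase gene PLAU (-0.95), its receptor PLAUR (-0.82), the adhesion molecule MCAM (-0.84) and the matrix protein SPARC (-0.70) were lower by about as much as ETS1 or less.

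The other two targets did not fall. ITGAV, the integrin alpha V subunit, had a log2 fold change of 0.25 (adjusted p = 0.036, limma), with overlapping groups, and the call was lost in 6 of 16 alternatives. The ITGAV log2 fold change did not pass without sh-Control replicate 1 (0.22), sh-Control replicate 2 (0.21), sh-METTL3 replicate 1 (0.24) or sh-METTL3 replicate 2 (0.14). SPP1, which encodes osteopontin, had 2, 0 and 0 reads in sh-Control libraries and 9, 7 and 23 in sh-METTL3 libraries, a ratio of 23.9 (95% exact interval 6.20 to 205, counting error only). Binding of ETS1 to any of these genes was not analysed here.

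**Figure D5:**
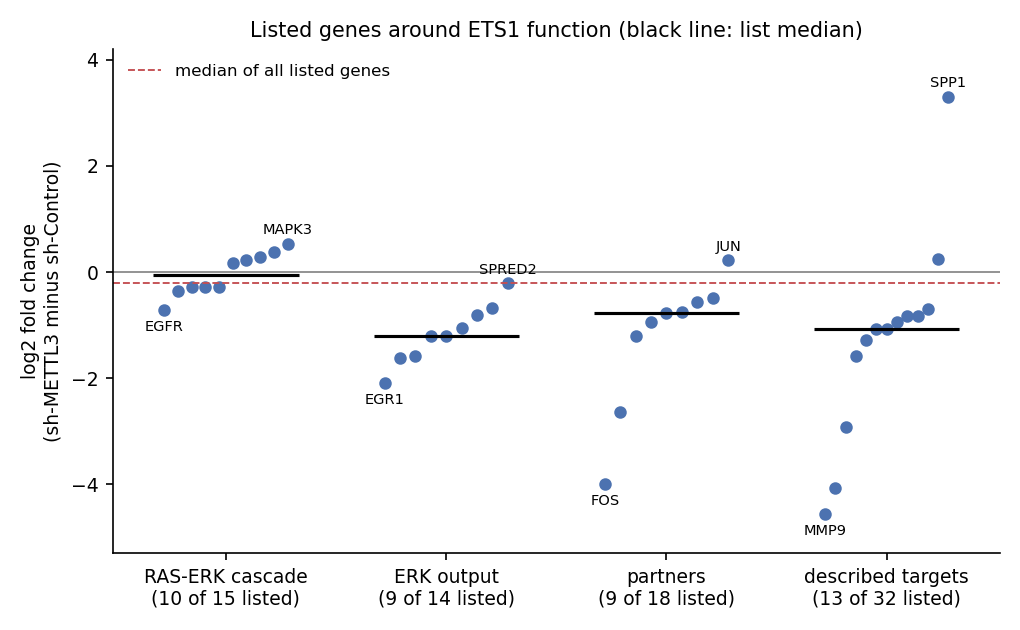
Log2 fold change (sh-METTL3 minus sh-Control) of the listed genes in 4 fixed groups around ETS1 function, with 1 point per gene, a black line at each group median and a dashed line at the median of all listed genes, -0.21. The RAS-ERK cascade is centred near 0 (-0.06), while the ERK output, partner and described target groups have medians of -1.20, -0.77 and -1.07.

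The genes whose level across the 6 libraries was most like that of ETS1 were PDGFB, a growth factor (Pearson r = 0.9996), IL32, a cytokine (0.9994), BCAT1, an amino acid transaminase (0.9991), ALPK2, an atypical kinase (0.9989), and KRT81, a hair keratin (0.9989). They were taken from 5724 protein-coding genes with a mean scaled count of at least 100, on the log2 scale. Their own log2 fold changes ran from -0.58 for BCAT1 to -3.58 for KRT81, so the likeness is of shape and not of size. The groups lie far apart, which raises r for many genes: 183 of the 5724 had r above 0.99, and 1349, or 23.6%, had r above 0.95.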

How the data were processed

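RNA from 3 sh-Control and 3 sh-METTL3 libraries of LPS-stimulated ARPE-19 cells had been sequenced. The submitters' processing notes name HISAT2 2.0.5 and hg38, while the study describes single-end reads and Cufflinks with RefSeq mRNAs. The deposited table has Ensembl identifiers whose coordinates equal those of GENCODE release 29 for 7758 of 7758 genes. The read counter and strandedness were not given in the sources used here. For every library the authors deposited a signal, the read count of a gene divided by 1 size factor, and 100% of the values gave whole reads (tolerance 0.05 reads). The authors also deposited group means, log2 fold change, p-value and adjusted p-value columns, which were not used for any result. No adjusted p-value there exceeds 0.05, so the table is preselected. In 13 rows a symbol turned into a date was restored.

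The log2 of the scaled count plus 1 was fitted with limma 3.58.1 (R 4.3.3) with an intensity trend, without covariates, over all listed genes, with Benjamini-Hochberg adjustment over them and a threshold of 0.05. This scale understates changes of weakly expressed genes. A count test had been planned for raw counts, and edgeR 4.0.16 and DESeq2 1.42.0 on the recovered reads served as alternatives, together with a pseudocount of 0.1, a mean of at least 50, no trend, the replicate number as a block, all 58780 annotated genes as tests, and each library left out in turn. Ratios within a library were compared with exact two-sided permutation tests, and ratios of few reads carry exact 95% intervals. ETS1, the lists and the tests were chosen with earlier results of these data known. Named genes were METTL3, every listed ETS family gene, the largest and smallest changes of each list and of the neighbours, members whose role the text explains, and the 5 genes most like ETS1. The scripts were tested on simulated data. Some genes of the lists are not reported by name here.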

Additional observations from a re-analysis of the deposited data

How the results depend on the processing

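Over 16 alternatives ETS1 stayed lower and past the threshold, and none of 109 other genes (the lists, the neighbourhood and the 5 genes most like ETS1) changed direction, with 13 of them below the threshold in at least 1 alternative. RLE scaling moved the median log2 fold change of all listed genes by 0.124, and under it the METTL3 log2 fold change was -0.17 and no longer passed. With annotated genes as tests METTL3 (-0.30) did not pass, the higher genes were 3 instead of 5 in the RAS-ERK cascade and 0 instead of 1 among the partners (JUN lost). The higher described targets were 1 instead of 2 with annotated genes as tests, with a mean of at least 50 and without the trend, and 1 to 2 when each library was left out. Leaving out a library gave ETS1 log2 fold changes from -1.15 to -0.96 and METTL3 from -0.38 to -0.18. With the replicate number as a block ETS1 was at -1.08 (adjusted p = 1.35e-06, limma) and 7750 genes were called, against 7747 without. Between libraries with the same number, correlations of deviations from the group means were 0.00361, 0.0193 and -0.015. These give every listed gene equal weight, so they cannot show whether such libraries were handled together. Genes outside the preselected table limit every count, and FLI1, ETV2 and SPP1 rest on few reads.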

Other observations

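Promoters were searched for CCGGAAGT, a high-affinity ETS word, on either strand from 250 bases before to 50 bases after the start, in RefSeq sequences on GRCh38.p14. The word was present in 4.44% of 27305 promoters and in 7.07% of the 5590 promoters matched to listed genes. It was in 7.72% of 3071 lower and 6.27% of 2519 higher genes. Among genes with a log2 fold change below -1 the share was 2.25% of 667, and above 1 it was 2.54% of 748. ELK4 was the 1 of 13 ETS family promoters that held it, and none of the 10 matched promoters of described ETS1 targets, 6 of ERK output genes and 8 of partners did. These are matches of letters in a short window and say nothing of binding.

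The density of GGACT in the longest coding transcript of each gene differed within the ETS family, and it is given as a description. Over the 17 listed members it ran from 0.593 per kb in ETV1 (4 matches) to 5.09 in ETV2 (8). ELF3 had 2.60 (13), ETS1 2.34 (12), FLI1 2.17 (9), ETS2 1.78 (7), ETV7 1.69 (3) and ERF 1.11 (3), and the other members were below 1 per kb.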
